A study of Mus musculus with 4 samples.

Results

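The genes described here are the SLAM family receptors Slamf1, Slamf6, Slamf7, Ly9, Cd84 and Cd244, the related surface protein Cd48 and the adaptor Sh2d1a, which encodes SAP. They were taken by symbol from the deposited expression table, and all 8 were found among its 23997 genes. RNA had been sequenced from cells of mouse lymph nodes and spleens labelled follicular helper T cells (Tfh), a subset of CD4 T cells that gives help to B cells in germinal centres. All mice were 13 weeks old and of the C57BL/6 strain. Wild-type (WT) mice gave 2 libraries, and 2 came from Apoe-/- mice, which lack apolipoprotein E, a ligand for lipoprotein uptake, and are prone to atherosclerosis. The labels name no other allele and no treatment, diet or sorting gate. They do not say whether the libraries of a genotype came from separate mice or pools, so the spread behind each p-value is that between libraries and may be technical. Values are FPKM, fragments per kilobase of transcript normalised to library size, as the authors computed them. FPKM is scaled for transcript length, so levels of different genes can be set side by side, but the read depth behind a value is unknown.

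SLAM receptors are immunoglobulin-type proteins of blood cells, and most of them bind their own kind on a neighbouring cell. Cd48 is the exception in structure, since it is held in the membrane by a lipid anchor and serves as the ligand of Cd244 and, in mice, of Cd2. The tails of the signalling receptors carry the immunoreceptor tyrosine-based switch motif, to which the SH2 domain of SAP binds. In Tfh cells SAP is known for steadying the contact with B cells, and mice without it form poor germinal centres. In the absence of SAP the same motif can recruit inhibitory phosphatases, and in natural killer (NK) cells the related adaptor EAT-2 uses it too.

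The motif was searched for in the reading frames of the members, because it is the feature that ties the receptors to the adaptor. It was read as a threonine codon, any codon, a tyrosine codon, any 2 codons, and a valine or isoleucine codon, on the coding strand only, in the longest complete reading frame of each gene (GENCODE M21 transcripts, GRCm38). Within the last 100 codons Slamf1, Slamf6, Ly9 and Cd84 held 2 matches each, Cd244 held 3 and Slamf7 held 1, whereas Cd48 and Sh2d1a held none there. Of 21500 coding genes 1.69% held a match in their last 100 codons. Only 10 genes held 2 or more, and they were these 5 receptors, 4 actins (Acta1, Acta2, Actc1 and Actg2) and the ceramidase gene Asah2. Cd244 had a further match upstream of that window, and Cd48 had 1 match at codons 105 to 110 of 240. Matches anywhere in the frame occurred in 7.96% of coding genes. A match is a description of the letters and not a proven binding site. The sites of Slamf6, Slamf1, Cd244 and Slamf7 are shown 5′ to 3′, with the threonine, tyrosine and valine or isoleucine codons in capitals. Those of Ly9 and Cd84 are not shown. Codons are counted from the start codon of the frame.
Slamf6, codons 293 to 298: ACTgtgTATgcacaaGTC
Slamf6, codons 317 to 322: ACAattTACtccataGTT
Slamf1, codons 286 to 291: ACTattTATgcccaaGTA
Slamf1, codons 333 to 338: ACAgttTATgccagtGTG
Cd244, codons 264 to 269: ACAataTATgaatatGTC
Cd244, codons 323 to 328: ACCatgTACtctatgATA
Cd244, codons 342 to 347: ACAgtaTATtcagtaGTC
Cd244, codons 367 to 372: ACCgtgTACgaggagGTT
Slamf7, codons 300 to 305: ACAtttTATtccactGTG
The spacing of the 3 capital codons is the same in every line by the way the search was made, and the codons between them vary.

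The label of the cells and of the genotypes was checked first. The T cell markers Cd3e, Cd3d, Cd3g, Cd4 and Cd5 summed to between 1957 and 1990 FPKM in the 4 libraries, and the Tfh markers Cxcr5, Bcl6, Pdcd1, Icos and Il21 to between 726 and 743 FPKM. Within the Tfh list the groups did not overlap for 3 genes, as they did not for 50.4% of all tested genes, and none of the 3 passed. The mean of Pdcd1 went from 271 in WT to 191 FPKM in Apoe-/- libraries, that of Cxcr5 from 169 to 213 FPKM, and that of Bcl6 from 95.3 to 112 FPKM. Apoe was at 145 and 128 FPKM in the WT libraries and at 5.09 and 5.21 FPKM in the Apoe-/- libraries. Markers of other cells were present as well. The 10 B cell markers, all measured at a mean of 1 FPKM or more, summed to 343 and 340 FPKM in WT and to 210 and 202 FPKM in Apoe-/- libraries. All 10 were lower in Apoe-/- libraries without overlap and had an unadjusted limma p under 0.05, and 4 of them passed after adjustment over all tested genes. Of all tested genes 22.9% were lower without overlap, 8.27% were lower at that unadjusted p, and 0.885% passed as lower. The 9 CD8 T and NK cell markers summed to 19.1 and 20.6 FPKM against 28.0 and 36.9 FPKM, the 7 macrophage and monocyte markers to 103 and 97.3 against 118 and 124 FPKM, and the 6 dendritic cell markers to 8.20 and 7.73 against 16.6 and 17.7 FPKM. The 7 neutrophil markers summed to 8.85 and 6.91 against 49.4 and 65.9 FPKM. Of the 4 that were tested, S100a8, S100a9 and Csf3r rose. Retnlg, the other, averaged 0.211 FPKM in WT and 4.24 FPKM in Apoe-/- libraries. It reached the mean of 1 FPKM needed for testing only through its Apoe-/- values, so its test supports nothing here. The granule gene Camp was at 0 in all libraries, and Ngp and Mpo were at most at 0.0452 FPKM. None of the 5 platelet markers reached a mean of 1 FPKM. Of the defining markers of CD8 T and NK cells Cd8b1 had a mean of 5.65 in WT against 8.24 FPKM in Apoe-/- libraries, and Cd8a and the NK receptor gene Ncr1 stayed below 2 FPKM. In such bulk RNA, fewer cells of a type and less RNA per cell cannot be told apart.

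Genotypes were compared on log2(FPKM + 1) with limma over the 11187 genes with a mean of 1 FPKM or more, and p-values were adjusted over all of them by the Benjamini-Hochberg method. By limma 0 of the 8 members passed the adjusted threshold of 0.05, which 1.83% of all tested genes did, 0.948% of them higher and 0.885% lower in Apoe-/- cells. At an unadjusted p under 0.05, 3 members were higher in Apoe-/- cells (Slamf6, Cd244 and Cd48) and 1 was lower (Slamf1), and 19.9% of tested genes reached that level, 11.6% higher and 8.27% lower. In all 8 members the WT and Apoe-/- values did not overlap, 5 being higher and 3 lower in Apoe-/- cells. The same held for 50.4% of tested genes, 27.5% higher and 22.9% lower. Cd244 reached the mean of 1 FPKM only through its Apoe-/- values, a selection that favours a difference above 0. Its tests and its place in these counts therefore support nothing here. Of the 7 other members 0 passed, and 2 were higher and 1 lower at an unadjusted limma p under 0.05. Without overlap, 4 of these 7 were higher and 3 lower. The median difference of the members was 0.30 on the log2 scale, beside a median of 0.000288 over all tested genes. It was 0.27 without Cd244 and 0.084 over the 6 members with a mean of 5 FPKM or more, and it ranged from 0.196 (without WT replicate 1) to 0.399 (without WT replicate 2) with a library left out. The only member whose call changed with a library left out was Cd244 (adjusted p = 0.0212 without Apoe-/- replicate 1 and 0.0367 without replicate 2, in a range of 0.0145 to 0.152 over all settings). In both cases its mean over the remaining libraries, 0.897 and 0.839 FPKM, was below the filter.

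**Figure D1:**
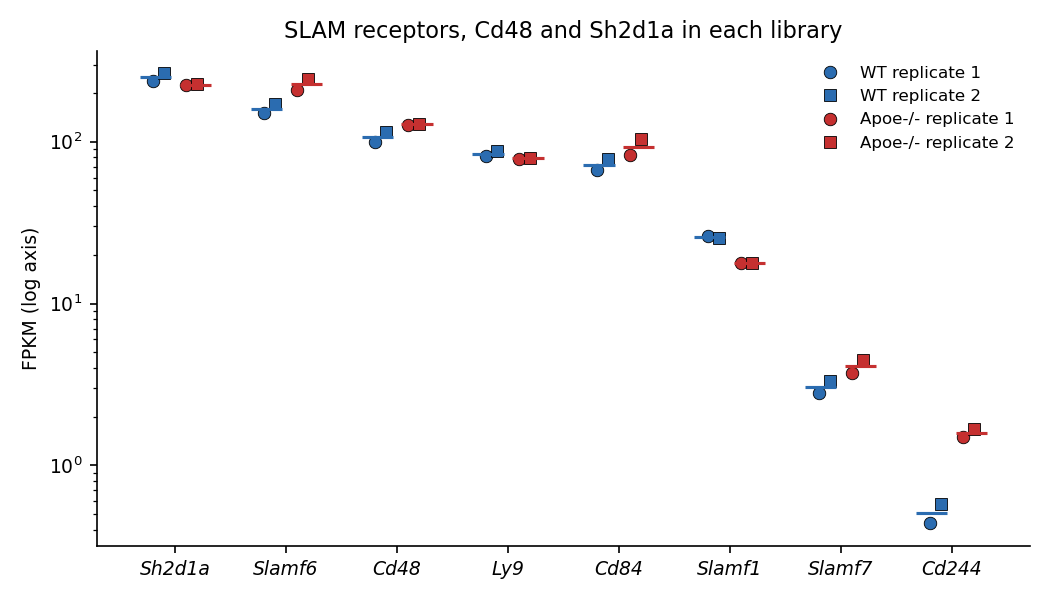
FPKM on a log axis of the 8 members by library (blue for WT, red for Apoe-/-), circles for replicate 1, squares for replicate 2 and lines for group means; genes are ordered by their WT mean. The levels run from 251 FPKM for Sh2d1a down to 0.507 FPKM for Cd244 in WT cells, and the red points of Slamf6 lie above and those of Slamf1 below the blue ones.

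In WT cells the order of levels was Sh2d1a, Slamf6, Cd48, Ly9, Cd84, Slamf1, Slamf7 and Cd244, and no neighbours in this order overlapped in range. In Apoe-/- cells Slamf6 and Sh2d1a stood first with overlapping ranges, and Cd84 stood before Ly9. Sh2d1a was higher in mean level than 97.5% of the tested genes and Slamf6 higher than 96.9%, whereas Slamf7 was higher than 15.6% and Cd244 than 0.545%. The family in these libraries was thus made up mainly of Slamf6, Ly9 and Cd84, with Slamf1 at a lower level and Slamf7 and Cd244 together giving 0.982% to 1.36% of the summed receptor FPKM.

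Slamf6, called Ly108 in the mouse, is a self-binding receptor found on most T cells and held at high level by Tfh cells. Its gene lies on chromosome 1 at 171917458 to 171948958 (GRCm38). It was measured at 151 and 170 FPKM in the WT libraries and at 208 and 245 FPKM in the Apoe-/- libraries, means of 160 ± 13.5 and 227 ± 26.3 FPKM (SD, n = 2). Each Apoe-/- library was higher than each WT library. The ratio of means was 1.41, and the log2 difference of 0.50 ± 0.12 SE, with a 95% interval of 0.19 to 0.80 before adjustment, did not pass (limma adjusted p = 0.115). Within libraries numbered 1 the difference was 0.46 and within those numbered 2 it was 0.53. Slamf6 gave 46.0% and 46.6% of the summed FPKM of the 6 receptors in WT and 53.0% and 54.3% in Apoe-/- libraries. Markers of other cells, given above, differed between the genotypes in both directions, and their part in the difference of Slamf6 was not tested.

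Slamf1, or CD150, the founding member of the family, is a self-binding receptor of T cells, B cells, dendritic cells and macrophages, and has been linked to Il4 production by mouse CD4 T cells. It lies at 171767131 to 171801184 of the same chromosome. Its values were 26.0 and 25.5 FPKM in WT and 17.7 and 17.7 FPKM in Apoe-/- libraries, with SDs of 0.347 and 0.0046 around means of 25.8 and 17.7 (n = 2). The Apoe-/- libraries were lower than either WT library, and libraries of a genotype lay close together. The ratio of means was 0.687 and the log2 difference -0.52 ± 0.10 SE (95% interval -0.77 to -0.27), which did not pass (limma adjusted p = 0.0812). The B cell markers, from cells that also make Slamf1, had a median log2 difference of -0.73 in the same libraries. The 4 tested dendritic cell markers, from cells that make it too, were all higher in Apoe-/- libraries without overlap, as were 27.5% of all tested genes. Their median was 0.75, and Itgax passed (limma adjusted p = 0.0198). Zbtb46, among these 4, averaged 0.949 FPKM in WT and reached the filter only through its Apoe-/- values. Its place in this count and median therefore supports nothing. The 7 macrophage and monocyte markers had a median of 0.23. The part of these cells in the difference of Slamf1 was not tested.

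Cd84 and Ly9 are self-binding receptors of T and B cells. Cd84, which with Slamf6 prolongs the contact of T and B cells in mice, was at 66.4 and 78.1 FPKM in WT and at 82.9 and 103 FPKM in Apoe-/- libraries. The Apoe-/- libraries were the higher ones, but the highest WT and the lowest Apoe-/- value lay closer to each other than the libraries of a genotype did. Its log2 difference of 0.36 ± 0.15 SE (95% interval -0.01 to 0.73) did not pass (limma adjusted p = 0.263). It was 0.20 without Apoe-/- replicate 2 and 0.51 without Apoe-/- replicate 1. Ly9, which has been linked to restraint of T and B cell responses, was at 81.6 and 87.4 FPKM in WT and at 78.6 and 79.1 FPKM in Apoe-/- libraries. Its difference was -0.10 ± 0.09 SE (adjusted p = 0.603), with a 95% interval of -0.33 to 0.14, and it was -0.049 without WT replicate 2. The median difference of B cell markers, -0.73, stands beside these values as well, with its part not tested.

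Slamf7 and Cd244 are receptors known mainly from NK cells and activated lymphocytes. Slamf7 also marks plasma cells. It was at 2.78 and 3.33 FPKM in WT and at 3.73 and 4.46 FPKM in Apoe-/- libraries, again higher in each Apoe-/- library, with a log2 difference of 0.33 ± 0.15 SE (adjusted p = 0.293). Cd244, or 2B4, the receptor of Cd48, was at 0.439 and 0.576 FPKM in WT and at 1.50 and 1.68 FPKM in Apoe-/- libraries. Its difference was 0.78 ± 0.14 SE on the log2(FPKM + 1) scale and 3.13-fold in mean FPKM, and it did not pass (adjusted p = 0.0732). As given above, it was tested only because its Apoe-/- values lifted its mean to 1 FPKM, so its size is not ranked against the other members. With a pseudocount of 0.1 in place of 1 its log2 difference was 1.48, since the larger pseudocount compresses values this low.

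The CD8 T and NK cell markers had a median log2 difference of 0.54 over 7 tested genes in the same libraries, 6 above and 1 below 0 and none passing. They ran from -0.27 for Gzma, whose groups overlapped, through 0.20 for Prf1 to 0.92 for Klrk1 and 1.07 for Klrd1. Plasma cell markers summed to 29.4 and 33.9 FPKM in WT and to 42.3 and 43.5 FPKM in Apoe-/- libraries, with a median difference of -0.13 over 3 tested genes. Of these Igj, the joining chain gene, rose from 10.2 to 27.2 FPKM on average (adjusted p = 0.0246), whereas Mzb1 was at 18.3 and 13.0 FPKM and Derl3 at 2.29 and 2.03 FPKM. Sdc1, below the filter, was at 0.766 and 0.569 FPKM. The part of these cells in the values of Cd244 and Slamf7 was not tested. The annotated Cd244 gene of GENCODE M21 overlaps Ly9 on the opposite strand, whereas in RefSeq it ends at 171585316, before Ly9 begins at 171588613. Neither the annotation behind the FPKM nor a strand setting is given in the sources used here. If the overlapping gene model was used without strand, reads of the far more abundant Ly9 could not be told apart from those of Cd244 there.

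Cd48 is the widely expressed ligand of the family on blood cells. It was at 99.0 and 115 FPKM in WT and at 128 and 129 FPKM in Apoe-/- libraries, with a log2 difference of 0.27 ± 0.11 SE (adjusted p = 0.251), 0.36 within libraries numbered 1 and 0.17 within those numbered 2. It was 0.16 without WT replicate 1. Its receptor Cd244 was far below it in every library, at most 1.68 FPKM. The part of other cells in the difference of Cd48 was not tested. Sh2d1a, on chromosome X at 42502565 to 42522097, was at 237 and 265 FPKM in WT and at 224 and 227 FPKM in Apoe-/- libraries. Its difference of -0.15 ± 0.09 SE did not pass (adjusted p = 0.431), with a 95% interval of -0.39 to 0.08, and it was -0.071 without WT replicate 2 and -0.23 without WT replicate 1.

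**Figure D2:**
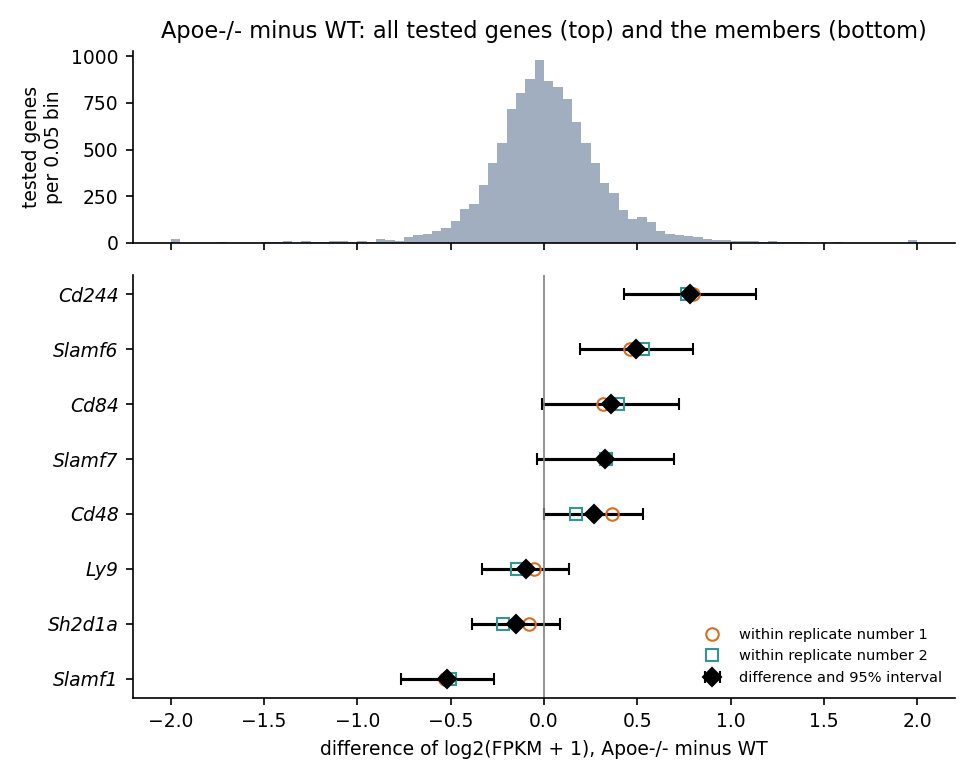
Difference of log2(FPKM + 1), Apoe-/- minus WT, as a histogram of the 11187 tested genes (top; 34 genes beyond 2 in size are drawn in the end bins) and for each member (bottom) with its unadjusted 95% interval and its values within libraries of equal number. Cd244 and Slamf6 lie at 0.78 and 0.50 and Slamf1 at -0.52. The values within number 1 and number 2 share a sign for every member, as they must where groups do not overlap.

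Each receptor and Cd48 was also set relative to Sh2d1a in the same library, as a common reference that does not imply that each of them binds SAP. Slamf6 stood at 0.637 and 0.641 of the Sh2d1a level in WT libraries and at 0.930 and 1.08 in Apoe-/- libraries. The mean ratio was 1.57-fold higher in Apoe-/- libraries, and the WT ratios lay closer together than the Apoe-/- ratios. For Cd84 the ratio was 0.280 and 0.295 against 0.370 and 0.455, and for Cd48 it was 0.418 and 0.432 against 0.570 and 0.568. Slamf1 stood at 0.110 and 0.0963 in WT and at 0.0791 and 0.0780 in Apoe-/- libraries, the only member whose ratio was lower there. The ratio of Ly9 was the closest between the genotypes, at 0.345 and 0.330 against 0.351 and 0.348. The groups did not overlap for any of the 7 ratios, 6 being higher and 1 lower in Apoe-/- libraries. Of the 6 higher, 1 was Cd244, which passed the filter only through its Apoe-/- values, so its place in this count supports nothing. Of the 11186 other tested genes set relative to Sh2d1a, 53.7% did not overlap either, 43.5% higher and 10.2% lower. The divisor itself was lower in both Apoe-/- libraries. Each of the 7 ratios gave p = 0.333 by an exact two-sided permutation test, the lowest p that groups of 2 allow. Any ratio whose groups do not overlap gives this p, so it adds nothing to the counts.

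**Figure D3:**
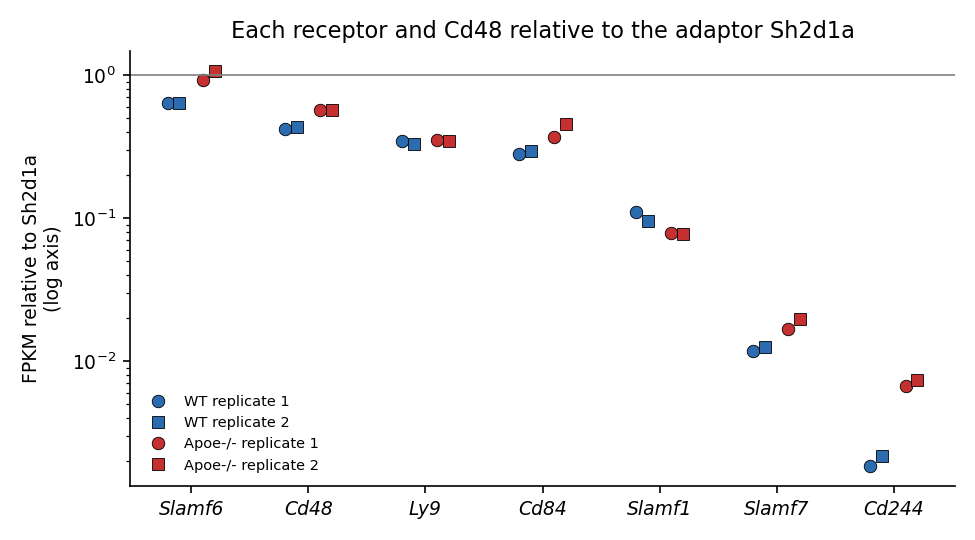
FPKM of each receptor and of Cd48 divided by that of Sh2d1a in the same library, on a log axis (blue for WT, red for Apoe-/-), with the grey line at equal levels. Slamf6 moves from 0.639 of the adaptor's level on average in WT to 1.005 in Apoe-/- libraries, and Slamf1 from 0.103 to 0.0785.

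The contrast between Slamf6 and Slamf1, chosen after their values were seen, can be put as a ratio within each library. Slamf6 was 5.80 and 6.66 times as high as Slamf1 in WT libraries and 11.8 and 13.9 times as high in Apoe-/- libraries. The summed FPKM of the 6 receptors was 328 and 365 in WT and 393 and 452 in Apoe-/- libraries, so the sum was higher in each Apoe-/- library while the share of Slamf1 was 7.93% and 6.99% in WT and 4.51% and 3.92% in Apoe-/- libraries. The share of Ly9 was 24.9% and 24.0% against 20.0% and 17.5%, and that of Cd84 was 20.2% and 21.4% against 21.1% and 22.9%, overlapping between the genotypes.

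The 7 members other than Sh2d1a lie side by side on chromosome 1, within 390 kb from 171558718 to 171948958, in the order Cd244, Ly9, Slamf7, Cd48, Slamf1, Cd84 and Slamf6. Slamf1, with the lowest difference, stands between Cd48 and Cd84, whose differences were above 0. The cluster holds 9 further RefSeq genes, mostly non-coding RNAs and pseudogenes, none of which has a row in the table used here. In the 500 kb on either side, a window chosen after the members' values were seen, 41 genes were listed and 26 tested. None of these passed, and their median difference was 0.08. An unadjusted limma p under 0.05 was reached by 4 of the 26, beside 19.9% of all tested genes. The farthest from 0 were Fcer1g, the Fc receptor gamma chain of myeloid and NK cells, at 0.61 and the potassium channel gene Kcnj10 at -0.61. Kcnj10 averaged 0.998 FPKM in Apoe-/- libraries and reached the filter only through its WT values, a selection that favours a difference below 0.

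**Figure D4:**
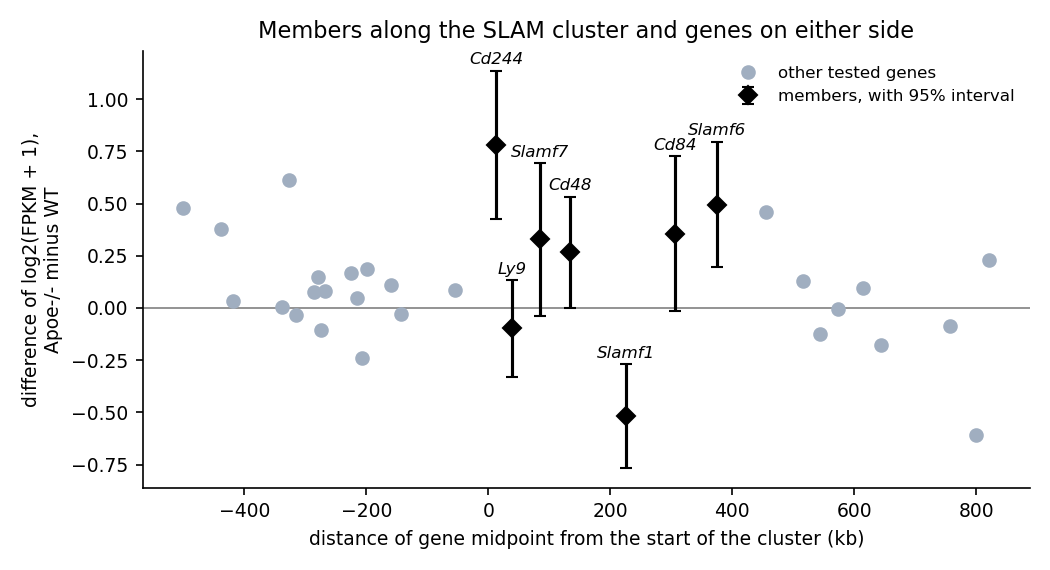
Difference of log2(FPKM + 1), Apoe-/- minus WT, against the distance of each gene's midpoint from the start of the SLAM cluster, for the 7 members on chromosome 1 (black, with unadjusted 95% intervals) and the 26 other tested genes within 500 kb (grey). Members with differences above 0 lie on either side of those below 0, with Slamf1 at -0.52 between Cd48 at 0.27 and Cd84 at 0.36.

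Partners of the pathway were read from lists of 27 genes, of which 25 were tested. The single one to pass was Il4, a B cell helper cytokine whose production by Tfh cells depends on SAP in mice. It fell from 32.4 and 38.9 to 12.6 and 13.1 FPKM (log2 difference -1.40 ± 0.13 SE, limma adjusted p = 0.0148), with -1.30 and -1.50 within libraries numbered 1 and 2. Il21, the other cytokine listed, was at 69.0 and 85.6 FPKM in WT and at 69.5 and 86.3 FPKM in Apoe-/- libraries, so that libraries of equal number lay closer together than those of a genotype. The median difference of the 25 tested partners was -0.03, with 12 above and 13 below 0. At an unadjusted limma p under 0.05, 1 was higher and 4 were lower. Of all tested genes 19.9% reached that level, 11.6% higher and 8.27% lower, so these counts are not read as a trend of the pathway.

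Of the relatives and adaptors, Sh2d1b1, which encodes EAT-2, was at 1.28 and 0.838 FPKM in WT and at 2.52 and 2.11 FPKM in Apoe-/- libraries (log2 difference 0.70 ± 0.17 SE, adjusted p = 0.113). It passed without Apoe-/- replicate 2 (adjusted p = 0.0320, in a range of 0.0154 to 0.408 over all settings). The CD8 T and NK cell markers given above, at a median of 0.54, stand beside this value too, with their part not tested. Its near-identical copy Sh2d1b2 was listed at 0 in every library, and how reads were divided between the copies is not given in the sources used here. Slamf8, a myeloid relative, was at 1.16 and 1.12 FPKM on average. Slamf9, another myeloid relative, did not reach the mean of 1 FPKM and ran from 0.211 FPKM in a WT library to 1.56 FPKM in an Apoe-/- library.

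None of the 10 kinases and downstream genes passed. Fyn, the Src kinase that SAP recruits to the receptors, was at 372 and 381 FPKM in WT and at 407 and 432 FPKM in Apoe-/- libraries (log2 difference 0.15 ± 0.08 SE). Bcl10, which links protein kinase C theta to NF-kB, gave the largest difference, with 72.1 and 78.4 against 51.4 and 51.1 FPKM (-0.54 ± 0.10 SE, adjusted p = 0.0713). Rasa1, a Ras GTPase-activating protein, and Dok1, a docking protein that binds it, had differences of -0.29 ± 0.20 SE and 0.26 ± 0.14 SE. Both depended on single libraries: without Apoe-/- replicate 1 Rasa1 was at -0.053 and Dok1 at 0.11, and without Apoe-/- replicate 2 they were at -0.53 and 0.41. None of the phosphatases that can occupy the motif when SAP is absent passed. Ptpn6 (SHP-1) was at -0.08, Ptpn11 (SHP-2) at 0.03 and Inpp5d (SHIP-1) at -0.14. The ends of their 95% intervals lay between -0.39 and 0.24. Ptpn6 and Inpp5d were lower in Apoe-/- libraries without overlap, as were 22.9% of all tested genes.

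Among 8 genes of T-B adhesion and help none passed. Cd28, the costimulatory receptor, was at 133 and 169 FPKM in WT and at 83.8 and 114 FPKM in Apoe-/- libraries (log2 difference -0.61 ± 0.19 SE, limma adjusted p = 0.165). Within libraries numbered 1 and 2 the difference was -0.66 and -0.57. With a library left out the difference changed in size, while its sign could not change, since the groups did not overlap. It was at -0.83 without Apoe-/- replicate 2, at -0.40 without Apoe-/- replicate 1 and at -0.44 without WT replicate 2. Whether Cd28 passed changed with the setting. Its lowest limma adjusted p, 0.00155, came with the replicate number as a block, a pairing that no label gives. The integrin ligand Icam2 had a difference of -0.35 ± 0.11 SE and the integrin subunit Itgal, part of LFA-1, of -0.19 ± 0.08 SE. Cd2, the other receptor of Cd48 in mice, was at 428 and 436 FPKM in WT and at 406 and 406 FPKM in Apoe-/- libraries, well above Cd244 in each of them.

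**Figure D5:**
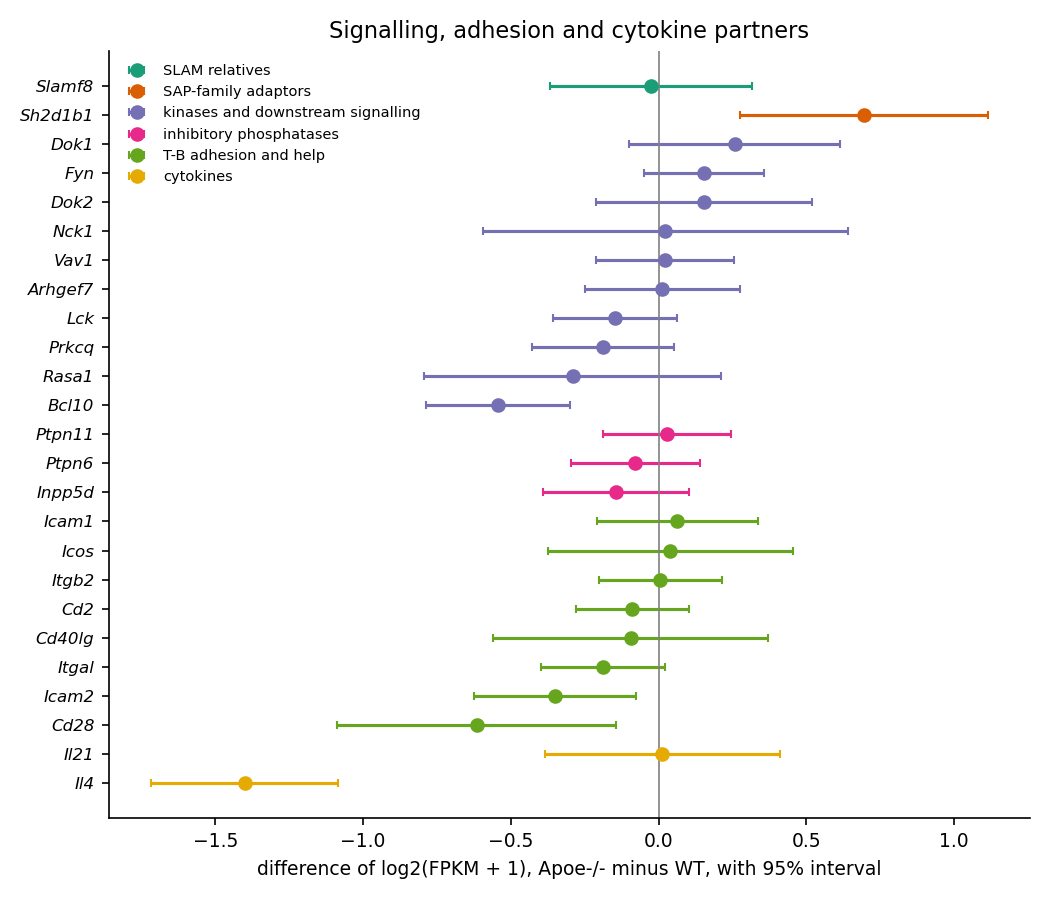
Difference of log2(FPKM + 1), Apoe-/- minus WT, with unadjusted 95% intervals for the 25 tested partner genes, coloured by list. Il4, at -1.40, is the only one past the adjusted threshold, and Sh2d1b1, Bcl10, Cd28 and Icam2 have intervals that leave out 0 without passing.

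The genes most like Slamf6 and Sh2d1a across the 4 libraries were sought by the distance between log2(FPKM + 1) profiles, each centred on its own mean. For Slamf6 the 3 nearest were Mrc1, the mannose receptor of macrophages (8.07 and 11.8 FPKM in WT and Apoe-/- cells), the DNase-like gene Dnase1l1 (8.94 and 13.1 FPKM) and 4833420G17Rik (46.7 and 65.1 FPKM), at distances of 0.033 to 0.040 against a median of 0.571 over all tested genes. For Sh2d1a they were Slc39a11, Gmpr2 and BC065397, at 0.014 to 0.028 against a median of 0.327. With 4 libraries many genes share a profile: 34 lay within 0.1 of Slamf6 and 294 within 0.1 of Sh2d1a.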

How the data were processed

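RNA-seq of cells labelled Tfh cells gave 4 libraries, 2 from WT and 2 from Apoe-/- mice. The deposited table holds FPKM per gene symbol and library, computed by the authors. Per the submitters' processing notes, the tools were Cuffdiff 2.2.0, TopHat2 2.0.13 and CASAVA 1.8.2 and the build mm10 (GRCm38); their roles, the annotation, the strand setting and any filter are not stated there. FPKM totals ran from 522371 to 551290 per library, and depth is unknown. In 2 rows a space stood for a tab, and rows were split on white space.

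Values were analysed as log2(FPKM + 1) for genes whose 4 libraries averaged 1 FPKM or more, and fitted in R 4.3.3 by two-sided limma 3.58.1 (linear model, empirical Bayes with its mean-variance trend, Benjamini-Hochberg adjustment). A model for counts was not used, since FPKM is already scaled. The procedure was tested on simulated data. The members, gene lists and tests were chosen with earlier results of these data known. Named are all members and, of each partner list, the genes that passed and up to 3 others with the largest difference; Fyn, Cd2 and the genes beside the cluster were added after their values were seen. Markers Jchain and Adgre1 were found under older names. Alternatives were another pseudocount, 2 filters, 2 scalings, no trend, a replicate block and leaving out each library. Sequences are from GENCODE M21 transcripts, positions from RefSeq GRCm38.p6. Protein sequences were not used here.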

Additional observations from a re-analysis of the deposited data

How the results depend on the processing

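All 8 members kept the sign of their difference in every one of the 11 alternatives in which they were tested. In most of these the sign could not change. Where groups do not overlap, another pseudocount or 1 library left out keeps it. The filters, the trend and the block leave the difference itself as it was. Only the 2 scalings could have changed a sign. The counts of members passing (0 higher, 0 lower) became 1 higher (Cd244) without the mean-variance trend and 0 to 1 higher with 1 library left out, with none lower. Both changes come from Cd244 alone, which passed the filter only through its Apoe-/- values, and are not read as calls. In these fits the single library left in a genotype is taken to vary as the other genotype's libraries do. The median difference of the members was 0.084 with a mean FPKM of 5 or more, a filter that removes Cd244 and Slamf7. Among partners, leaving out a library gave 0 to 1 higher and 1 to 2 lower. Over all tested genes, 35 were higher and 41 lower with no filter, 51 were higher with a mean FPKM of 5 or more, and 54 to 317 were higher and 61 to 301 lower with a library left out, where the full comparison gave 106 and 99.

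Titles give both genotypes the numbers 1 and 2, but no label ties equal numbers to an animal or day. Over all tested genes the deviations of equally numbered libraries from their group means had a Pearson correlation of 0.214, across genes. With the replicate number as a block, 4 members were higher (Slamf6, Cd84, Cd244 and Cd48) and 1 lower (Slamf1), 3 partners were higher and 8 lower, and of all genes 1908 were higher and 1776 lower.

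Differences near 0 changed sign in a few settings. Rescaled to one FPKM total, which moves the median of all genes to -0.04, Ptpn11 was at -0.019 and Il21 at -0.035. With a library left out, Il21 ranged from -0.14 to 0.17 and Slamf8 from -0.072 to 0.022. The cause of these shifts was not tested. No neighbour inside the SLAM cluster had a row, so its counts could not be recomputed. Unknown depth limits the precision of Cd244, Sh2d1b1 and Slamf9, whose values lie near 1 FPKM.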
